A study of Mus musculus with 12 samples.

Results

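The Ms4a genes encode small tetraspan proteins of the cell membrane, and 8 of them (Ms4a4a, Ms4a4b, Ms4a4c, Ms4a6b, Ms4a6c, Ms4a6d, Ms4a7 and Ms4a8a) are described here in bone marrow-derived macrophages (BMDMs). They are the rows of the count table whose Ensembl identifiers carry these symbols, 8 of the 48526 genes listed. BMDMs were grown from the whole bone marrow of 3 female C57Bl/6J mice in 10 ng/mL mCSF, the growth factor that all groups shared, and were used on day 7. Every mouse gave cells to all groups: untreated, 100 ng/mL Wnt3a, 100 pg/mL IL4, or both for 16 hr. The labels name no altered allele and no age, and the cells are cultured macrophages, not cells taken from a tissue. The columns labelled Wnt3a and Wnt3a+IL4 hold reads in common, since a gene's value in the former was never under 1 or over 2 times its value in the latter (0 genes outside). They were therefore taken apart into the difference (what is left of the Wnt3a column when the Wnt3a+IL4 column is taken from it) and the remainder (2 times the Wnt3a+IL4 column, less the Wnt3a column). Both parts come from Wnt3a-treated cells, but the labels do not say which of them also received IL-4, and it was not inferred from expression.

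MS4A proteins sit in the plasma membrane and in endosomes, where several of them act as partners of immune receptors. The best known are CD20 of B cells, the product of Ms4a1, and the beta chain of the high-affinity IgE receptor, the product of Ms4a2. In macrophages, MS4A4A is known to act beside dectin-1, a receptor for fungal beta-glucan, and the human MS4A locus is linked to the amount of soluble TREM2. IL-4 is the classical inducer of alternative macrophage activation, and Wnt3a starts the canonical β-catenin pathway.

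Total counts were 13342492 to 17113982 in untreated and IL-4 libraries and 14171994 to 17453377 in the difference and the remainder. All 8 macrophage markers (Csf1r, Adgre1, Cd68, Lyz2, Itgam, Mertk, Fcgr1 and Cd14) were above the count filter, while the B cell marker Ms4a1 and the T cell markers Cd3e, Cd3d, Cd3g, Cd8a and Trac had 0 or 1 count in every library. Of the IL-4 target genes, Retnla had 781, 535 and 618 counts in the IL-4 libraries and 0 or 1 in the other 9. Arg1 had 0, 2 and 1 counts in untreated cells, 26, 26 and 19 with IL-4, 0, 1 and 0 in the difference and 402, 97 and 114 in the remainder. Ccl17 had 0 counts in untreated cells, 9, 3 and 0 with IL-4, 13, 4 and 1 in the difference and 76, 15 and 22 in the remainder. Chil3 had 193 to 296 counts in untreated cells, 380 to 471 with IL-4, 222 to 263 in the difference and 278 to 360 in the remainder. Mrc1 had 566 to 1065 counts in untreated cells, 2993 to 3738 with IL-4, 369 to 487 in the difference and 2136 to 2484 in the remainder, which exceeded the difference by a log2 of 2.33 (adjusted p = 1.4e-05). The deposited columns each hold both parts, so the contrast between them is smaller by construction (Mrc1 log2 0.36, not called). Axin2, a target of β-catenin, had 0 or 1 count in every untreated and IL-4 library, 1, 1 and 5 counts in the difference and 11, 9 and 13 in the remainder. In RNA from whole cultures, fewer cells of a type and less RNA per cell cannot be told apart.

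Across the 537.4 kb of chromosome 19 (mm10) from Ms4a8a to Ms4a6d, GENCODE lists 17 protein-coding genes. Ms4a8a (chr19:11067471-11081102) and Ms4a7 (chr19:11321039-11336146) lie on the minus strand. They are followed on the plus strand by Ms4a4a (chr19:11375523-11392790), Ms4a4c (chr19:11404770-11427246), Ms4a4b (chr19:11443553-11467055), Ms4a6c (chr19:11469366-11482192) and Ms4a6b (chr19:11516512-11531256). Ms4a6d (chr19:11586604-11604849), on the minus strand, ends the row. Neighbours in this cluster resemble each other, and reads could be split or lost between them. Of the 50-base stretches of Ms4a4c transcripts, 8.19% also occur in another gene, mostly Ms4a4b, while for Ms4a4a and Ms4a8a the share was 0%. For Ms4a6c, 53.1% of exon bases lie opposite exons of BE692007, a gene of the other strand. The sources used here do not say whether counting used the strand, so Ms4a6c and BE692007 reads may not be told apart.

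Promoter windows, the 250 bases before the RefSeq start on GRCm38.p6, were at hand for 7 members. The 2 pairs of members whose windows share the most identical bases are shown, Ms4a4b with Ms4a4c and Ms4a6b with Ms4a6c. Capitals mark bases that were identical in the local alignment of each pair, lower case marks the rest, and bases in annotated exons were left off the end. The windows are chr19:11443308-11443552, chr19:11407411-11407660, chr19:11518309-11518452 and chr19:11469118-11469365, all on the plus strand. Those of Ms4a4c and Ms4a6b lie inside the spans that GENCODE gives these genes, where the RefSeq and GENCODE starts differ.
Ms4a4b: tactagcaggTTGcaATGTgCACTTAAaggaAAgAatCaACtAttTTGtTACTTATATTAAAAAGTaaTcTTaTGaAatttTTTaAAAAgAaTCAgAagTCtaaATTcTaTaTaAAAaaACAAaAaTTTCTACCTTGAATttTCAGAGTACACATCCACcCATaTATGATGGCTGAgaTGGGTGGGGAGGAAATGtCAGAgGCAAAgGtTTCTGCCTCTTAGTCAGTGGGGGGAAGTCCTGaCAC
Ms4a4c: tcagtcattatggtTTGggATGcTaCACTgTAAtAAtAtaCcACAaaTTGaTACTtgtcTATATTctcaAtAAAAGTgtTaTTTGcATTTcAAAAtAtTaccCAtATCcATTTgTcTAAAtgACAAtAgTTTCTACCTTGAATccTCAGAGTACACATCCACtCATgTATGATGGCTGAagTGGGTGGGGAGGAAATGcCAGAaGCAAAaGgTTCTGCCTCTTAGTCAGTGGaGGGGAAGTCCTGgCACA
Ms4a6b: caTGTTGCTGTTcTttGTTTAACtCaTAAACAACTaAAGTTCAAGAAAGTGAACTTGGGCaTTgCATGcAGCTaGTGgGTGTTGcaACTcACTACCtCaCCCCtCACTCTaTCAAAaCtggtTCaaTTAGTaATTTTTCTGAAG
Ms4a6c: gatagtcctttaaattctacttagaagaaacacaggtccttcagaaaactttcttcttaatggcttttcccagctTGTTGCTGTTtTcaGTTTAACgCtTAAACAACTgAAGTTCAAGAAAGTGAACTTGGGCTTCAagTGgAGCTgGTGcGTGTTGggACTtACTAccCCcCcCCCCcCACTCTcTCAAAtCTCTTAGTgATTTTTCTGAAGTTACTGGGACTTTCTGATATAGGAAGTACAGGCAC
Over the whole windows, 184 of 251 aligned columns (73.3%) were identical between Ms4a4b and Ms4a4c, and 152 of 182 (83.5%) between Ms4a6b and Ms4a6c, with 48 bases in a row the same. These values include exon bases not shown. In the Ms4a6b window 106 of 250 bases lie in annotated exons, and most of the 48-base run falls there. In the other 19 pairs of members, the longest run of identical bases was at most 9.

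In all, 4 letter patterns, chosen with results of these data known, were searched on both strands of the 7 windows. They were a STAT6-type site TTCNNNNGAA (in 5.85% of all 32851 windows), an interferon-response core GAAANNGAAA (2.98%), a TCF/LEF site CTTTGAT (3.21%) and a PU.1 site GAGGAAGT (2.44%). The 1 match was a STAT6-type pattern that begins 13 bases before the start of Ms4a7, in capitals in its window (chr19:11336147-11336396, minus strand), the member whose level moved least.
Ms4a7: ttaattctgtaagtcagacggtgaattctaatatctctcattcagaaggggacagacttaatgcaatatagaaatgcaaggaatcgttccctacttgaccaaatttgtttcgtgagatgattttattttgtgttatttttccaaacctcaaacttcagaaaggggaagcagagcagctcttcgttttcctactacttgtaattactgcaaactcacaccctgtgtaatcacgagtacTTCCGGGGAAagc
A match of letters is a description and not a site. The other 6 windows, that of Ms4a4a among them, lack these letters within 250 bases.

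In untreated BMDMs, Ms4a7 was the highest member per length. Levels per length are given as CPM (counts relative to the library total, scaled by TMM) per kb of annotated exon. Ms4a7 stood at 177 ± 5.55 (SD, n = 3 mice), Ms4a6d at 66.8 ± 5.58 and Ms4a6c at 52.1 ± 5.05. Ms4a6b followed at 8.83 ± 2.15, Ms4a4a at 7.15 ± 3.21 and Ms4a4c at 2.67 ± 1.16. Ms4a4b stood at 0.0712 ± 0.0244. For Ms4a6c the full exon length was used, 53.1% of it opposite BE692007, so its level and rank depend on how reads there were counted. The ranges of Ms4a6b and Ms4a4a overlapped between mice, as did those of Ms4a4a and Ms4a4c, while within each of the 3 mice the order of these genes was the same. With IL-4 alone Ms4a4a (22.2 ± 4.76) stood above Ms4a6b (6.40 ± 0.209). In the difference and the remainder, Ms4a6d took the first place, at 249 ± 10.6 and 264 ± 24.8 CPM per kb, before Ms4a7 at 184 ± 12.1 and 216 ± 25.5. The ranges of these 2 genes did not overlap in the difference, and did in the remainder, where Ms4a6d was still the higher of the 2 in each mouse.

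**Figure D1:**
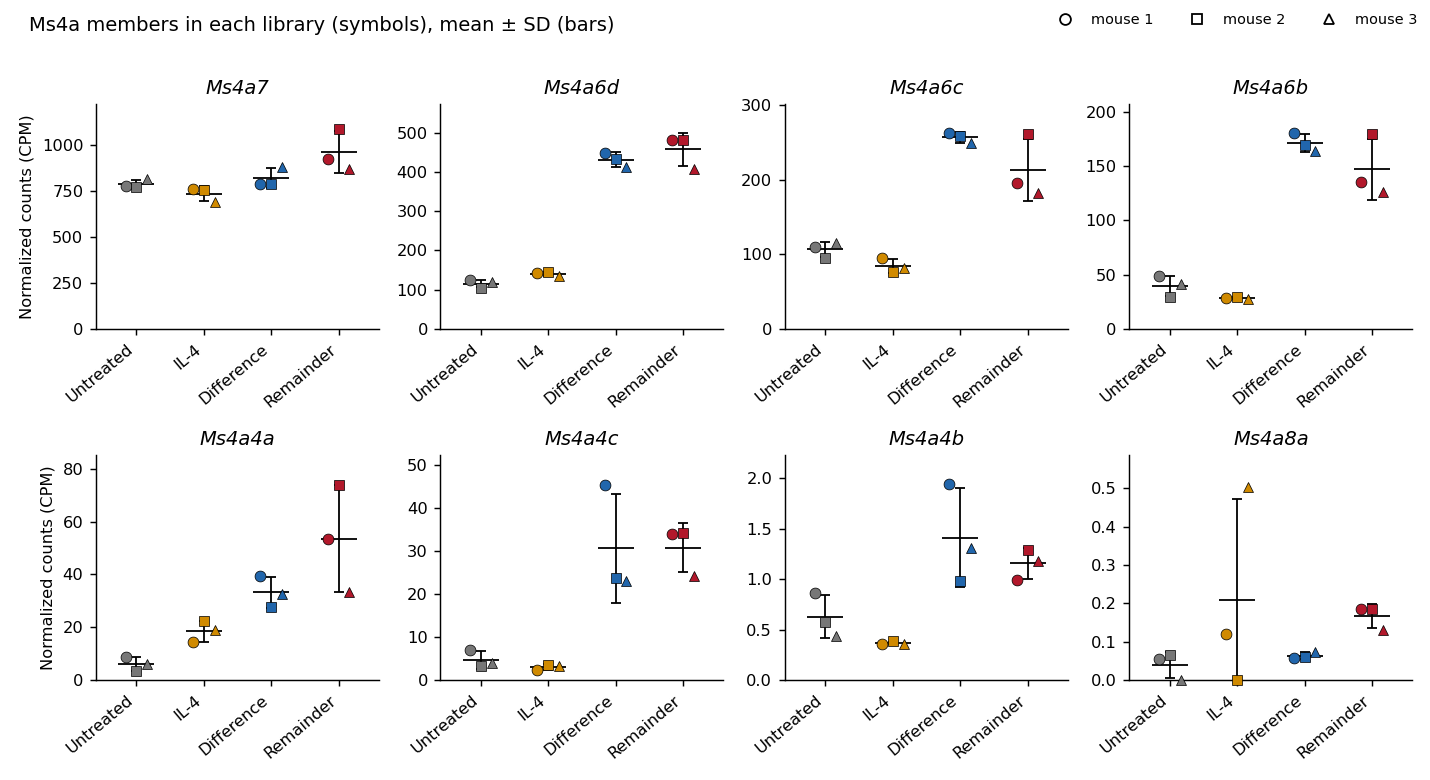
Normalized counts (CPM, linear axis from 0) of the 8 Ms4a members in each of the 12 libraries, 3 mice (symbols) in each of 4 groups, with the mean and SD as bars. Ms4a6d, Ms4a6c, Ms4a6b, Ms4a4a and Ms4a4c are higher in all 6 difference and remainder libraries than in any untreated library, while Ms4a7 spans 687 to 1088 CPM over all groups.

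The first comparison asked what IL-4 alone did to the family. Of the 7 members tested, 1 rose with IL-4, Ms4a4a, and 0 fell. Over the whole table of 12421 genes tested, 2.31% were called higher and 1.09% lower, a call being a Benjamini-Hochberg adjusted p under 0.05 in edgeR's quasi-likelihood test. Members not called lay between log2 fold changes of -0.77 (Ms4a4b) and 0.28 (Ms4a6d), and the median of the 7 was -0.34, against -0.003 over all genes tested. Of the 7, 4 had an unadjusted p under 0.05.

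The next comparisons set the Wnt3a-treated parts against untreated cells. In the difference, 6 of the 7 tested members rose (Ms4a4a, Ms4a4b, Ms4a4c, Ms4a6b, Ms4a6c and Ms4a6d) and 0 fell, where 11.8% of all genes were called higher and 11.4% lower. In the remainder, 6 of 7 rose (Ms4a4a, Ms4a4c, Ms4a6b, Ms4a6c, Ms4a6d and Ms4a7) and 0 fell, where 13.6% of all genes were called higher and 11.7% lower. The median log2 fold change of the 7 was 1.898 in the difference and 1.89 in the remainder, against -0.012 and -0.024 over all genes tested. Both comparisons share the untreated libraries, and Ms4a4b passed the count filter only through the difference and the remainder. The calls of Ms4a4a, Ms4a4c, Ms4a6b, Ms4a6c and Ms4a6d held in both comparisons under all 24 alternatives each, and the calls of Ms4a4b and Ms4a7 did not, as given with these genes.

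Set against IL-4 alone, 5 of 7 members were higher in the difference (all but Ms4a4a and Ms4a7) and 0 lower, where 10.0% of all genes were called higher and 10.3% lower. In the remainder, 7 of 7 were higher than with IL-4 alone, where 10.6% of all genes were called higher and 9.67% lower. Ms4a4b, called in both, passed the count filter only through the difference and the remainder. Between the remainder and the difference, 0 of 7 members were called, where 2.87% of all genes were called higher in the remainder and 2.38% lower. Of the 7, 3 had an unadjusted p under 0.05 in that comparison (Ms4a4a, Ms4a6c and Ms4a7), and DESeq2 also called 0. Without mouse 2, edgeR called Ms4a6b and Ms4a6c lower in the remainder (adjusted p = 0.04 and 0.022), and without the remainder of mouse 2 alone it called Ms4a6c (adjusted p = 0.021).

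**Figure D2:**
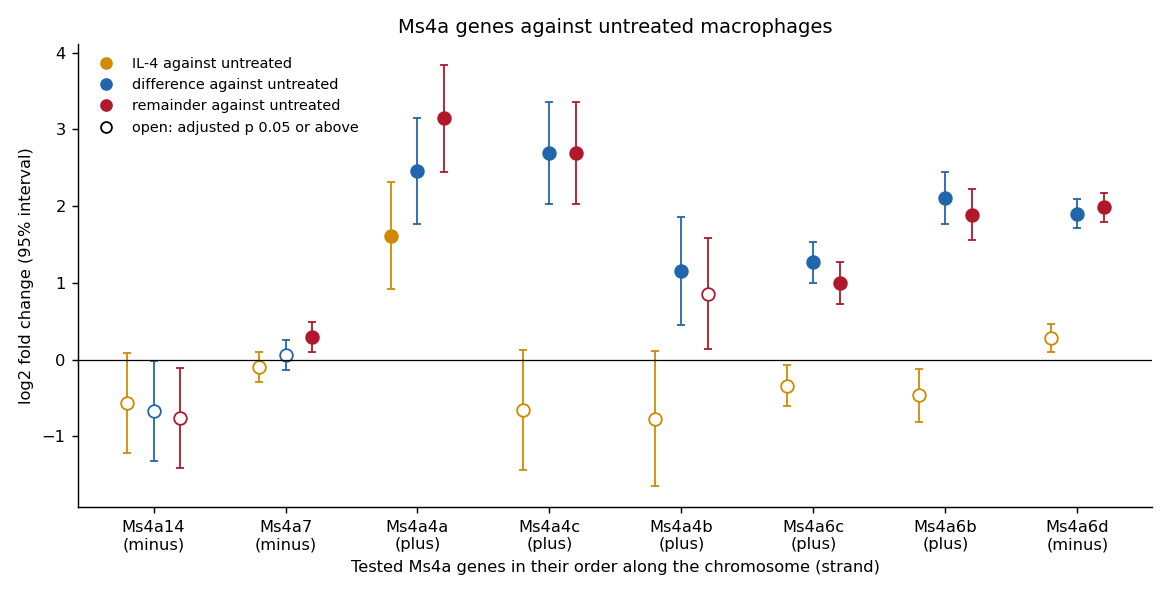
log2 fold change against untreated cells, with 95% interval, of the tested Ms4a genes in their order along the chromosome, with the strand below each name. Filled points passed an adjusted p of 0.05, and the points of the difference and the remainder lie above 0 from Ms4a4a to Ms4a6d.

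Ms4a4a, the partner of dectin-1 named above, was the member called higher with IL-4 and also with Wnt3a. Its CPM were 8.65, 3.28 and 6.02 in untreated cells of mouse 1, 2 and 3, and 14.3, 22.2 and 19.0 with IL-4. They were 39.4, 27.7 and 32.6 in the difference and 53.3, 73.8 and 33.2 in the remainder. Untreated and IL-4 libraries did not overlap, and both were below every difference and remainder library. IL-4 raised Ms4a4a 3.06-fold (log2 1.61, SE 0.33, adjusted p = 0.011). This call was lost without mouse 3 (adjusted p = 0.21) and without single libraries, namely untreated 3 (0.068), IL-4 2 (0.071) and IL-4 3 (0.05), while the log2 fold change stayed between 1.16 and 2.15 in all alternatives. Ms4a4a was 5.49-fold higher in the difference (log2 2.46, SE 0.32, adjusted p = 7.2e-05) and 8.84-fold in the remainder (log2 3.14, SE 0.32, adjusted p = 6.3e-06) than in untreated cells.
The remainder exceeded IL-4 alone by a log2 of 1.53 (SE 0.29, adjusted p = 0.0018). The difference exceeded it by 0.85 (SE 0.29), which was not called (adjusted p = 0.058) but was without mouse 2 (adjusted p = 0.0044) and in 7 further alternatives, among them the fits without untreated 1, untreated 2, remainder 2 or remainder 3. Between the remainder and the difference the log2 difference of Ms4a4a was 0.69 (95% interval 0.08 to 1.30, adjusted p = 0.20).

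Whether the IL-4 effect differed with Wnt3a was asked under both assignments of the parts. With the difference taken as Wnt3a, 0 of 7 members were called, where 0.0403% of all genes were called higher and 0.0644% lower. Unadjusted p was under 0.05 for 2 members, Ms4a4a (log2 -0.93, 95% interval -1.85 to -0.0025) and Ms4a7 (log2 0.33, 95% interval 0.06 to 0.61), and DESeq2 called 0. With the remainder taken as Wnt3a, 1 of 7 was called, Ms4a4a, where 2.91% of all genes were called higher and 4.42% lower. Its IL-4 effect was then smaller with Wnt3a than without by a log2 of -2.30 (SE 0.43, adjusted p = 0.0039). That call was lost without mouse 3 (adjusted p = 0.063). Under the same assignment DESeq2 called 3 members, Ms4a6b (log2 0.70, adjusted p = 0.031) and Ms4a6c (log2 0.62, adjusted p = 0.015) beside Ms4a4a. The labels do not say which assignment holds, so both results are given. Of the IL-4 targets above, Retnla was at 0 or 1 count in both parts, while Arg1 and Mrc1 were higher in the remainder than in the difference. Chil3 and Ccl17 were also higher in the remainder but were not called by edgeR (adjusted p = 0.11 and 0.08).

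The Ms4a6 genes rose in both Wnt3a-treated parts and were not called with IL-4 alone. Ms4a6d, whose product is known to associate with the inhibitory receptor VSIG4 on macrophages, had 124, 105 and 119 CPM in untreated cells and 143, 144 and 135 with IL-4. It had 450, 433 and 413 CPM in the difference and 483, 482 and 408 in the remainder. All 6 Wnt3a-treated values were above all others, and the IL-4 values lay just above the untreated ones without overlap. Its rise was 3.73-fold in the difference (log2 1.898, SE 0.09, adjusted p = 5.7e-09) and 3.95-fold in the remainder (log2 1.98, SE 0.09, adjusted p = 2.7e-09). Among the members these changes had the smallest adjusted p. With IL-4 alone the log2 fold change was 0.28 (95% interval 0.09 to 0.47, adjusted p = 0.11), and between the parts it was 0.08 (95% interval -0.10 to 0.27).

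Ms4a6b had 48.5, 29.4 and 41.0 CPM in untreated cells, 28.7, 29.6 and 27.8 with IL-4, 181, 169 and 164 in the difference and 135, 179 and 126 in the remainder. IL-4 and untreated values overlapped, and the Wnt3a-treated ones lay clear above both. The rise was 4.31-fold in the difference (log2 2.11, SE 0.16, adjusted p = 3.9e-07) and 3.70-fold in the remainder (log2 1.89, SE 0.16, adjusted p = 7.8e-07). With IL-4 the log2 fold change was -0.47 (95% interval -0.81 to -0.12, adjusted p = 0.16). With mouse 2 left out it passed the test as lower (adjusted p = 0.0075), as it did without only the untreated library of mouse 2 (adjusted p = 0.014), the lowest of the 3.
Ms4a6c had 110, 95.2 and 115 CPM in untreated cells, 95.3, 76.3 and 81.4 with IL-4, 263, 258 and 249 in the difference and 196, 261 and 182 in the remainder. Untreated and IL-4 ranges met at 95.2 and 95.3, the Wnt3a-treated values lay above both, and mouse 2 was highest of the remainder, as for Ms4a6b. The rise was 2.41-fold in the difference (log2 1.27, SE 0.13, adjusted p = 5.4e-06) and 2.0-fold in the remainder (log2 1.00, SE 0.13, adjusted p = 4e-05). With IL-4 the log2 fold change was -0.34 (95% interval -0.61 to -0.07, adjusted p = 0.20).

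Ms4a4c and Ms4a4b are the neighbours with similar promoter windows shown above. Ms4a4c had 6.98, 3.15 and 3.89 CPM in untreated cells and 2.28, 3.58 and 3.17 with IL-4. It had 45.2, 23.6 and 22.9 CPM in the difference and 33.9, 34.1 and 24.1 in the remainder. Untreated and IL-4 values overlapped, and all Wnt3a-treated values were at least 22.9. The rise over untreated cells was 6.47-fold in the difference (log2 2.69, SE 0.31, adjusted p = 2.1e-05) and 6.49-fold in the remainder (log2 2.70, SE 0.31, adjusted p = 1.7e-05). Over IL-4 alone, log2 differences were 3.35 in the difference (SE 0.33, adjusted p = 4.4e-06) and 3.36 in the remainder (SE 0.33, adjusted p = 5.6e-06), and these were the highest of the family in those comparisons. Between the parts the log2 difference was 0.0027 (95% interval -0.58 to 0.58).
Ms4a4b, best known from T cells, was near the limit of detection. It had 16, 9 and 7 counts in untreated libraries, 6, 6 and 5 with IL-4, 34, 16 and 18 in the difference and 16, 21 and 18 in the remainder. The T cell markers Cd3e, Cd3d, Cd3g, Cd8a and Trac were at 0 or 1 count in all of these libraries. Cd4, which other cells also express, had 65 to 68 counts in untreated libraries, 28 to 41 with IL-4, 47 to 87 in the difference and 39 to 83 in the remainder, lowest with IL-4 as for Ms4a4b, and its part in the result was not tested. The log2 fold change against untreated cells was 1.15 in the difference (SE 0.33, adjusted p = 0.021). This call was lost without any 1 of the 3 mice (adjusted p = 0.054 to 0.19), without untreated 2 (0.059), untreated 3 (0.081) or difference 1 (0.12), in DESeq2 (0.064) and with the fit limited to the groups compared (0.057). In the remainder the log2 fold change was 0.86 (SE 0.34, adjusted p = 0.080), which was called without mouse 1 (adjusted p = 0.042) and without its untreated library (0.044). Over IL-4 alone Ms4a4b was higher by a log2 of 1.92 in the difference (SE 0.37, adjusted p = 0.0015) and of 1.63 in the remainder (SE 0.38, adjusted p = 0.0064), the latter not without mouse 3 (adjusted p = 0.096).

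Ms4a7, known as a marker of tissue macrophages, was the most abundant member by counts and moved least. Its CPM were 776, 769 and 815 in untreated cells, 761, 753 and 687 with IL-4, 785, 788 and 880 in the difference and 924, 1088 and 869 in the remainder. Untreated and difference values overlapped, and the remainder lay above the untreated range, with mouse 2 highest. Against untreated cells the log2 fold change was -0.10 with IL-4 (95% interval -0.30 to 0.10) and 0.06 in the difference (95% interval -0.14 to 0.25, or -0.03 with total counts as the scaling). In the remainder it was 0.29 (SE 0.09, adjusted p = 0.032), or 1.22-fold. With the mouse as a block the adjusted p was 0.056, and with total counts as the scaling the log2 fold change was 0.18 (adjusted p = 0.13), where the median of all genes stood at -0.13. The call was also lost without any 1 of the mice (adjusted p = 0.065 to 0.23) and without untreated 1 (0.065), untreated 2 (0.058) or remainder 2 (0.076). Over IL-4 alone the remainder was higher by a log2 of 0.39 (SE 0.09, adjusted p = 0.0070), a call lost without mouse 2 (0.052) or mouse 3 (0.053).

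Ms4a8a, known from macrophages of tumours and of alternative activation, had too few counts to be tested. It had 1, 1 and 0 counts in untreated cells, 2, 0 and 7 with IL-4, 1, 1 and 1 in the difference and 3, 3 and 2 in the remainder. In 11 of the 12 libraries it was at or under 3 counts, the limit that a count of 0 allows, and the IL-4 library of mouse 3 was the exception. No difference between groups was detectable at this depth.

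Summed over the 8 members, CPM per kb were 314 ± 19.3 (SD, n = 3) in untreated cells, 317 ± 12.6 with IL-4, 653 ± 21.1 in the difference and 698 ± 98.1 in the remainder. The lowest Wnt3a-treated library had 601 and the highest of the others 326. Ms4a7 made up 56.3% ± 2.71 of the sum in untreated cells, 51.9% ± 0.856 with IL-4, 28.1% ± 2.30 in the difference and 31.0% ± 1.34 in the remainder. Ms4a6d made up 21.2% ± 0.639, 25.6% ± 0.174, 38.1% ± 1.18 and 38.0% ± 2.77. Without Ms4a7, the sum was 138 ± 16.2 in untreated cells, 153 ± 3.72 with IL-4, 470 ± 27.5 in the difference and 482 ± 73.7 in the remainder. These sums depend on annotated exon length, which is 836 bases in Ms4a4a and 8780 in Ms4a4b. The part of Ms4a6c also depends on how reads opposite BE692007 were counted.

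**Figure D3:**
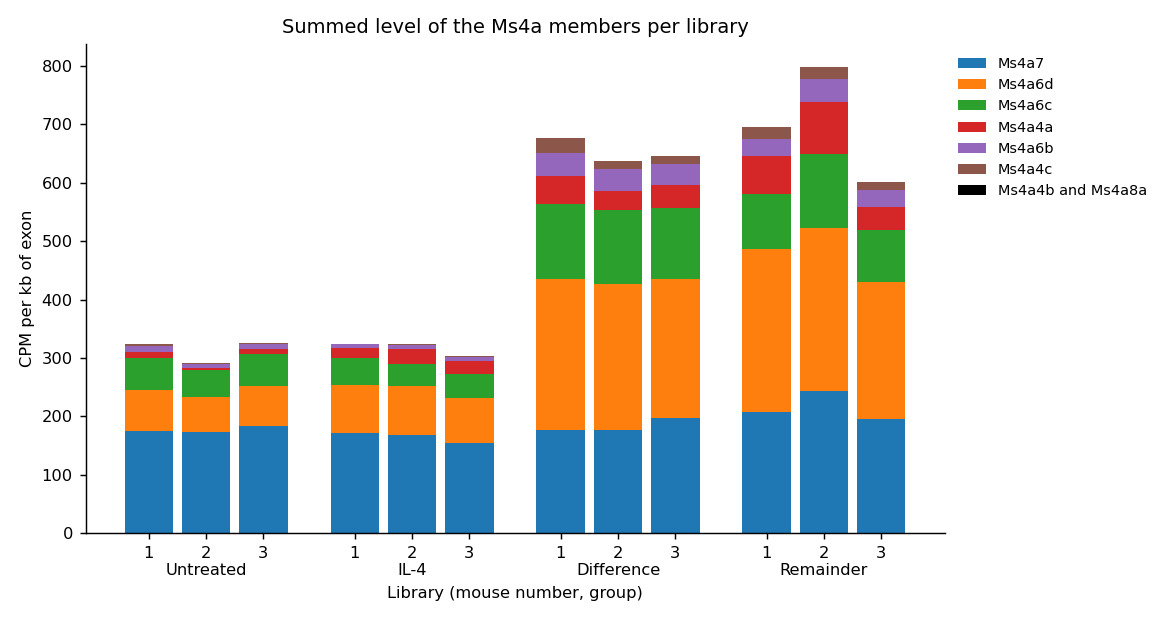
Summed level of the Ms4a members in each library, in CPM per kb of exon, with 1 bar for each of 3 mice in each of 4 groups and 1 colour for each member. The 6 untreated and IL-4 bars end between 292 and 326 and the 6 difference and remainder bars between 601 and 797, while the Ms4a7 segment stays between 154 and 244.

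Other genes of the family were mostly silent in these cells. Of the 14 in the list, 11 had at most 3 counts in every library (Ms4a1, Ms4a2, Ms4a3, Ms4a4d, Ms4a5, Ms4a10, Ms4a12, Ms4a13, Ms4a15, Ms4a18 and Ms4a20) and 3 were tested. Among the 3, 0 were called with IL-4 or in the difference against untreated cells, where 2 and 1 had an unadjusted p under 0.05 and DESeq2 called 0. In the remainder 1 was lower, Tmem176b. Of all genes, 2.31% were called higher and 1.09% lower with IL-4, 11.8% and 11.4% in the difference and 13.6% and 11.7% in the remainder, and a list of 3 genes is too short to be read against these shares. Ms4a14, which lies next to Ms4a7 on the minus strand, had 47.1, 18.0 and 33.3 CPM in untreated cells, 19.4, 22.3 and 24.8 with IL-4, 28.9, 15.9 and 17.0 in the difference and 19.1, 24.9 and 14.1 in the remainder. All groups overlapped, and log2 fold changes against untreated cells were -0.57, -0.67 and -0.76 (adjusted p = 0.43, 0.13 and 0.083). In the difference Ms4a14 passed the test as lower without mouse 2 (adjusted p = 0.038), untreated 2 (0.016) or difference 1 (0.048), and in the remainder without mouse 2 (0.002), untreated 2 (0.0074) or remainder 2 (0.048).
Tmem176b, which with Tmem176a lies outside the cluster on chromosome 6 and encodes an intracellular ion channel-like protein, had 279, 293 and 415 CPM in untreated cells and 163, 234 and 198 in the remainder. These ranges did not overlap, and the log2 fold change was -0.73 (SE 0.22, adjusted p = 0.023). The call was lost without mouse 3 (adjusted p = 0.31), untreated 3 (0.11), remainder 1 (0.10) or remainder 3 (0.065). With the deposited columns, where the difference is mixed into the remainder, the value was log2 -0.41 (adjusted p = 0.19). The remaining tested gene of the cluster, Gm8369, lies between Ms4a6c and Ms4a6b and was named for that place. It had 9 to 33 counts, and its log2 fold changes against untreated cells were 0.33 in the difference (adjusted p = 0.61) and -0.09 in the remainder (adjusted p = 0.90).

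Dectin-1, TREM2 and their adaptor and signalling genes were measured as a list of 9 genes, all tested. Against untreated cells, 1 rose with IL-4 (Clec7a), 1 rose and 1 fell in the difference (Card9 and Trem2), and 1 rose and 2 fell in the remainder (Clec7a, Bcl10 and Trem2). In the same order, 1, 5 and 5 of the 9 had an unadjusted p under 0.05 in edgeR, and DESeq2 called 1, 3 and 4. Of all genes, 2.31% were called higher and 1.09% lower with IL-4, 11.8% and 11.4% in the difference and 13.6% and 11.7% in the remainder. A list of 9 genes is too short for counts of 1 or 2 to be read against these shares. Median log2 fold changes of the 9 were 0.005, 0.12 and 0.07, against -0.003, -0.012 and -0.024 over all genes tested. Clec7a, which encodes dectin-1, had 174, 135 and 161 CPM in untreated cells, 461, 397 and 377 with IL-4, 149, 149 and 149 in the difference and 275, 412 and 288 in the remainder. Its IL-4 and remainder values were above all others, unlike those of Ms4a4a, which were also high in the difference. Log2 fold changes against untreated cells were 1.39 with IL-4 (SE 0.14, adjusted p = 4.5e-05), -0.07 in the difference (adjusted p = 0.75) and 1.05 in the remainder (SE 0.14, adjusted p = 6.9e-05). The remainder exceeded the difference by 1.12 (SE 0.14, adjusted p = 0.00026). Between the deposited columns, which each hold both parts, the contrast is smaller by construction (log2 0.19, not called) and does not test this call.
Trem2, a lipid-sensing receptor, had 1293, 1652 and 1361 CPM in untreated cells, 1547, 1529 and 1461 with IL-4, 663, 744 and 811 in the difference and 1039, 805 and 976 in the remainder. All Wnt3a-treated values were below all others. The fall was -0.96 on the log2 scale in the difference (SE 0.12, adjusted p = 3.4e-05) and -0.61 in the remainder (SE 0.12, adjusted p = 0.0013), and both held in all alternatives.
Card9, Bcl10 and Malt1 encode the signalling complex downstream of dectin-1. Card9 rose by a log2 of 0.32 in the difference (SE 0.09, adjusted p = 0.021), which was lost with total counts as the scaling (0.078), without mouse 1 (0.088) or 3 (0.21), and without untreated 3 (0.11), difference 1 (0.068) or difference 2 (0.064). Bcl10 changed by -0.33 in the remainder (SE 0.08, adjusted p = 0.0092), lost without mouse 2 (0.12) or 3 (0.073). The kinase gene Syk, Plcg2, Malt1, the adaptor gene Tyrobp and Fcer1g lay between log2 fold changes of -0.16 and 0.435 in these 3 comparisons and were not called.

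**Figure D4:**
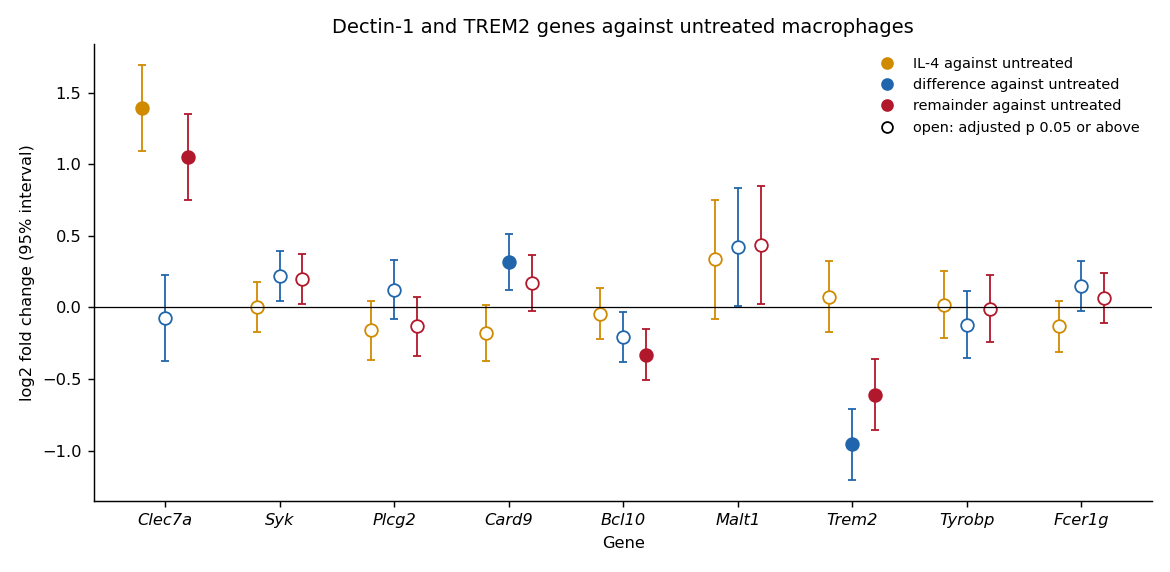
log2 fold change against untreated cells, with 95% interval, of the 9 genes of the dectin-1 and TREM2 list with IL-4, in the difference and in the remainder. Filled points passed an adjusted p of 0.05, with Clec7a at 1.39 and 1.05 with IL-4 and in the remainder and Trem2 at -0.96 and -0.61 in the difference and the remainder.

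Of the 8 macrophage markers, 3 moved with the groups as several members did, and the others did so less or not at all. Itgam stood at 127 ± 7.07 CPM (SD, n = 3) in untreated cells, 126 ± 14.2 with IL-4, 265 ± 22.1 in the difference and 236 ± 8.65 in the remainder. Fcgr1 stood at 129.5 ± 5.74, 100.0 ± 16.6, 273 ± 12.9 and 197 ± 12.5 CPM in the same order, and Cd14 at 567 ± 19.3, 397 ± 12.1, 972 ± 32.0 and 653 ± 63.3. Adgre1 (mean CPM 2442, 2295, 3028 and 2854) and Lyz2 (45330, 37860, 52940 and 46920) rose by less. Mean CPM of Cd68 were 1840, 2030, 1689 and 1927. Those of Csf1r were 5229, 5604, 4789 and 4678, and those of Mertk 123, 107, 111 and 105. Cd68, Csf1r and Mertk had lower means in the difference than in untreated cells. Markers of other cells were read beside the members. The 4 dendritic cell markers summed to 20.8 to 25.8 CPM in untreated cells, 155 to 201 with IL-4, 55.9 to 61.8 in the difference and 234 to 261 in the remainder. Itgax, also an integrin of macrophages, made up most of this sum, with 373 to 392 counts in untreated libraries, 2137 to 3337 with IL-4, 824 to 1060 in the difference and 3775 to 3962 in the remainder. Zbtb46, a defining factor of dendritic cells, had 4 to 9 counts in untreated libraries, 8 to 14 with IL-4, 4 to 10 in the difference and 13 to 28 in the remainder, and its group means had the same order. Flt3 had 0 to 5 counts and Xcr1 0 to 11. The 6 neutrophil markers summed to 38.8 to 48.7 CPM in untreated cells, 50.1 to 59.6 with IL-4, 28.4 to 45.4 in the difference and 25.5 to 29.7 in the remainder, with Ly6g and Ms4a3 at 0 to 3 counts. The 4 stromal markers reached at most 27.9 CPM in any library, the 6 of T cells 5.45 and the 5 of mast cells and basophils 4.58, with Ms4a2 and Fcer1a at 0 in all libraries. Cd79b and Cd4 were the B and T cell markers above the count filter. The part of these cells and markers in the Ms4a levels was not tested.

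Across the 12 libraries, the members' log2 CPM were compared as a description, since the libraries share mice and treatments. Pearson's r was 0.99 between Ms4a6b and Ms4a6c, 0.98 between Ms4a4c and Ms4a6b and 0.94 between Ms4a4b and Ms4a4c. Values with Ms4a7 were 0.58 to 0.68, and those of Ms4a4a with the other members 0.59 to 0.87. Of the 8505 non-member genes whose mean reached 8 CPM, those most like Ms4a6d were Il2rg (r = 0.994), Ly6e (0.994) and P2ry14 (0.991). Those most like Ms4a6c were Slc31a1 (0.986), Clec4e (0.981) and Atrnl1 (0.979), and those most like Ms4a7 were Nudt5 (0.907), Prmt9 (0.888) and Tmem126a (0.865).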

How the data were processed

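RNA-seq counts were analysed for 3 mice in 4 groups, 12 samples in all. Per the labels and the methods of the study, the authors trimmed single reads (Trimmomatic 0.36), aligned them to mm10 (STAR 2.6.0) and counted them on genes (HTSeq 0.11.1), and the deposited values are raw counts. The strand setting and gene set release are not given in the sources used here, and 99.0% of identifiers were paired with a symbol. The 12421 genes that reached 10 counts in 3 or more libraries were tested in a single fit of the untreated, IL-4, difference and remainder libraries with edgeR 4.0.16 in R 4.3.3 (quasi-likelihood test, TMM, no mouse term, Benjamini-Hochberg adjusted p under 0.05). Values in parentheses after a first adjusted p in a sentence are adjusted p-values too. Whether the cultures were independent beyond the mouse is not stated. The mice pair the samples by design, and the main fit does not use this pairing. Deviations of same-mouse libraries from their group means correlated at -0.42 to 0.45 over 18 pairs, 6 of them over 0.1. These correlations had no common sign. Positions and exon lengths came from GENCODE M21 (mm10), and promoter windows from RefSeq (GRCm38.p6), aligned with Biopython 1.88. The 8 members, the gene lists, the motifs and the rules for naming genes were chosen with earlier results of these data known. Named were all members, the tested genes of the family list and of the dectin-1 and TREM2 list, and for the 3 most abundant members the 3 genes with the highest r of log2 CPM (prior count 2). Tests on simulated data, modelled on IL-4 against untreated cells with 12253 genes, recovered 185 of 200 genes changed by a log2 of 1.0, with 7 false calls. The changed genes were drawn from those of higher counts, so low counts and smaller changes were not covered. Alternatives were other scalings, DESeq2 1.42.0, other count filters, the mouse as block, each mouse or library left out, only the groups compared, the deposited columns in place of the parts, and a stricter threshold. Intervals and floors cover counting error and spread between these mice only.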

Additional observations from a re-analysis of the deposited data

Results flagged for a closer look

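With the remainder taken as Wnt3a, edgeR's interaction test called a different IL-4 effect with Wnt3a for 1 member and 2 genes of the other lists. It also did so for the IL-4 target genes Mrc1, Chil3, Arg1 and Retnla. Of all genes, 2.91% were called higher and 4.42% lower. For Ms4a4a the difference was -2.30 on the log2 scale (adjusted p = 0.0039), lost without mouse 3 (adjusted p = 0.063). For Clec7a it was -2.52 (adjusted p = 1.8e-06), called in all 22 alternatives. For Tmem176b it was 1.11 (adjusted p = 0.040), and this call was lost without mouse 3 (adjusted p = 0.58) and without 7 of the single libraries (adjusted p = 0.086 to 0.11): untreated 3, IL-4 1, IL-4 3, difference 2, difference 3, remainder 1 and remainder 3. For the IL-4 targets Mrc1 and Chil3 it was -4.47 (adjusted p = 2.6e-07) and -1.35 (adjusted p = 0.0002), both called in all 22 alternatives. Arg1 and Retnla, at the floor in some groups, were also called lower, and their fitted values are not given because they depend on the prior count. With the difference taken as Wnt3a, Ms4a4a, Clec7a and Tmem176b stood at -0.93, -0.27 and -0.11 (adjusted p = 0.39, 0.63 and 0.93), and Mrc1 and Chil3 at 0.19 and -0.58 (adjusted p = 0.85 and 0.22), where 0.0403% of all genes were called higher and 0.0644% lower. The labels do not give the assignment. Groups of 3 libraries are too small to single out a far value.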

How the results depend on the processing

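In each comparison the count of members called was recomputed under up to 24 alternatives. With IL-4 it was 1, but 4 with all genes of at least 1 count (Ms4a4c, Ms4a6b and Ms4a6c called lower), 0 at an adjusted p under 0.01, and 0 to 2 with a mouse or library left out. Between the remainder and the difference it was 0, but 1 with all genes of at least 1 count (Ms4a4a) and 0 to 2 with a mouse or library left out. For the interaction with the difference taken as Wnt3a it was 0, and 1 with all genes of at least 1 count (Ms4a4a). With the remainder taken as Wnt3a it was 1, but 2 when scaled by the size factors of DESeq2 or by total counts, 3 in DESeq2 or with all genes of at least 1 count, and 0 to 3 with a mouse or library left out. The cause was not tested. In the other 4 comparisons the count stayed within 1.5 times.

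Signs turned for 6 values of the members, none of them called, and for Mrc1 in the difference against untreated cells, which was called at -0.83 and stood at 0.39 with the deposited columns (adjusted p = 0.13). The Wnt3a column used there also holds the reads of the remainder, so these Mrc1 values are of different mixtures. Ms4a7 in the difference against untreated cells was -0.033 with total counts as the scaling. Ms4a4c in the remainder against the difference was -0.0034 with the size factors of DESeq2, -0.021 with total counts, -0.0008 in DESeq2 and -0.0025 with the deposited columns, and ranged from -0.22 to 0.40 with a mouse or library left out. Other ranges that crossed 0 with a mouse or library left out were -0.58 to 0.13 for Ms4a4b in the remainder against the difference, -0.078 to 0.215 for Ms4a6c with the difference taken as Wnt3a, and -0.27 to 1.26 for Ms4a4c and -0.31 to 0.027 for Ms4a7 with the remainder taken as Wnt3a.

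As a replicate block, the mouse left the count of members called at 6 in the difference and took it from 6 to 5 in the remainder against untreated cells (Ms4a7). It changed no other member's call.

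Genes called over the whole table moved by over 1.5 times in places. For IL-4 against untreated cells, 422 genes became 812 with all genes of at least 1 count, 708 with the deposited columns and 227 at an adjusted p under 0.01. For the remainder against the difference, 652 became 1454, 0 and 279 under the same settings, and 422 with only the groups compared. For the interaction with the difference taken as Wnt3a, 13 became 575, 142 and 0, and 165 in DESeq2. With the remainder taken as Wnt3a, 910 became 1505 with all genes and 472 at the stricter threshold. At that threshold the other 4 comparisons kept 1574 to 1960 of 2519 to 3137 genes. With a mouse or library left out, counts ranged from 77 to 532 with IL-4, 1220 to 3188 in the difference and 1375 to 3807 in the remainder against untreated cells, 97 to 1188 between the parts, 1208 to 2805 and 1043 to 3052 against IL-4, and 0 to 43 and 265 to 1459 for the interactions. Under total counts as the scaling, 33.7% of calls in the difference and 35.6% in the remainder against untreated cells were higher, in place of 50.7% and 53.8%, and 53.8% with IL-4 in place of 68.0%, while the median of all genes shifted to -0.10, -0.13 and -0.06. Fits on the deposited columns understate the spread, since reads are counted in both. They also shrink the contrast between the Wnt3a-treated groups by construction and mix both parts in contrasts with the other groups. Calls lost or values changed there are no test of the results from the parts. Ms4a8a and Ms4a4b are limited by depth.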
